A study of Mus musculus with 12 samples.

Results

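The genes examined were 9 transcription factors with known parts in the identity and subtype choice of auditory neurons: Gata3, Prox1, Pou4f1, Pou4f2, Runx1, Runx3, Esrrg, Tlx3 and Insm1. They were chosen by name, and all 9 were found among the 25674 Ensembl genes of the count table. RNA came from mouse spiral ganglia of E14.5 embryos. Per the labels' protocols, each library held 100 sorted cells that carried the red reporter tdTomato, taken from both inner ears of a single embryo of either sex, and the embryos came from several litters. The 6 control libraries had the genotype Neurod1Cre; Rosa26tdTOM. The 6 libraries labelled Isl1CKO had the genotype Neurod1Cre;Isl1loxP/loxP;Rosa26tdTOM. Both groups therefore carried Cre and the reporter, on a mixed C57BL/6/sv129 background. Cre came from a bacterial artificial chromosome transgene with Neurod1 sequences, so recombination and sorting depend on cells that use those sequences, and a Cre-negative group was not analysed here. A label tag calls the numbered libraries technical replicates while the design text calls them biological; where they were not separate embryos, the p-values measure technical spread.

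Spiral ganglion neurons carry sound information from hair cells to the brainstem. Type I neurons, the large majority, contact inner hair cells, and type II neurons contact outer hair cells. Their identity is built by successive transcription factors. The zinc finger protein GATA3 is needed for these neurons to survive and wire, and its loss of function causes deafness in humans. POU4F1 and ISL1 work together in sensory ganglia at large, and RUNX1 and RUNX3 divide sensory neurons of the body into pain-sensing and muscle-sensing classes. In the mature ganglion, Runx1 and Pou4f1 mark subsets of type I neurons, and Gata3 and Prox1 are prominent in type II neurons.

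The libraries held 11895603 to 13857480 counts. Levels are given as CPM, counts relative to the library total after scaling by TMM, a method that evens out library composition. A level of 3 counts, the limit that a count of 0 allows, was 0.219 to 0.250 CPM, and covers counting error only. The targeted gene, Isl1, lay between 1171 and 1777 CPM in controls and between 1050 and 1589 CPM in the other group (log2 fold change -0.15, adjusted p = 0.460 in edgeR). Counts over a whole gene cannot show whether the floxed segment was lost, so genotype rests on the labels. Replicates 2, 3 and 5 of the Isl1CKO group held Xist (62.9, 77.8 and 132 CPM) together with Y-linked transcripts (Ddx3y at 44.5, 95.9 and 49.5 CPM), although each sample is described as 1 embryo. In every other library 1 of these 2 genes was below 1 CPM. The members' results are therefore given with and without those 3 libraries. Neuronal markers were abundant, with 12 of them summing to 14493 to 16560 CPM in controls and 13144 to 15464 CPM in Isl1CKO libraries. In the same order, summed levels were 1.92 to 400.3 and 1.32 to 796 CPM for 11 macrophage markers, 31.9 to 186 and 35 to 260.1 CPM for 9 Schwann cell markers, and 253 to 538 and 293 to 580 CPM for 7 hair cell markers. They were 38.5 to 84.4 and 70.5 to 121 CPM for 9 mesenchyme markers, 58.5 to 94.1 and 18.1 to 45.0 CPM for 10 markers of cochlear epithelium, and 94.9 to 228 and 101 to 447 CPM for 8 markers of dividing cells. They were 0.476 to 4.90 and 0.365 to 29.9 CPM for 5 endothelial, 2.29 to 21.7 and 1.24 to 11.2 CPM for 4 blood, and 2.42 to 2.96 and 0.317 to 2.03 CPM for 4 lymphocyte markers. Most of the hair cell sum was Myo6, at 240.6 to 485.5 CPM in controls and 279.9 to 573.6 CPM in Isl1CKO libraries. Gfi1, Pou4f3 and Lhx3 of that list had group means of 0.544 CPM or less. Between the groups the mesenchyme markers Tbx18 and Col3a1 rose, and Ccer2 of the hair cell list, Cd3e of the lymphocyte list and 4 neuronal markers fell, while 3 neuronal markers rose (edgeR). The mesenchyme list was mixed. Pou3f4 went from a mean of 52.9 to 27.4 CPM (adjusted p = 0.143 in edgeR) and Twist1, too scarce to test, from 1.13 to 0.0129 CPM. Col1a2 went from 1.30 to 4.67 CPM (adjusted p = 0.0602 in edgeR) and Prrx1, also untested, from 0.337 to 4.72 CPM. The part of all these markers in the results was not tested. In sorted pools, fewer cells of a kind and less RNA per cell cannot be told apart.

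Of the 9 factors, 7 had enough counts to be tested, and each of these 7 had at least 20 counts in every library. Runx1, Gata3, Pou4f2 and Esrrg fell in the Isl1CKO libraries. Pou4f1, Prox1 and Insm1 did not pass the test, and Tlx3 and Runx3 were too scarce to enter it. The 4 that passed stand against 10.2% of the 14813 genes tested (edgeR quasi-likelihood test, adjusted p under 0.05), and all 4 are lower, as are 5.19% of tested genes, while 5.01% are higher. The 4 were 57.1% of the 7 tested, where 58.3% of the 12 neuronal markers passed, 4 lower and 3 higher. The set was proposed with earlier results of these data known, so its share is a description. Without Isl1CKO replicates 2, 3 and 5, Runx1 and Gata3 still passed and Pou4f2 and Esrrg did not, 2 members against 4.73% of genes.

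**Figure D1:**
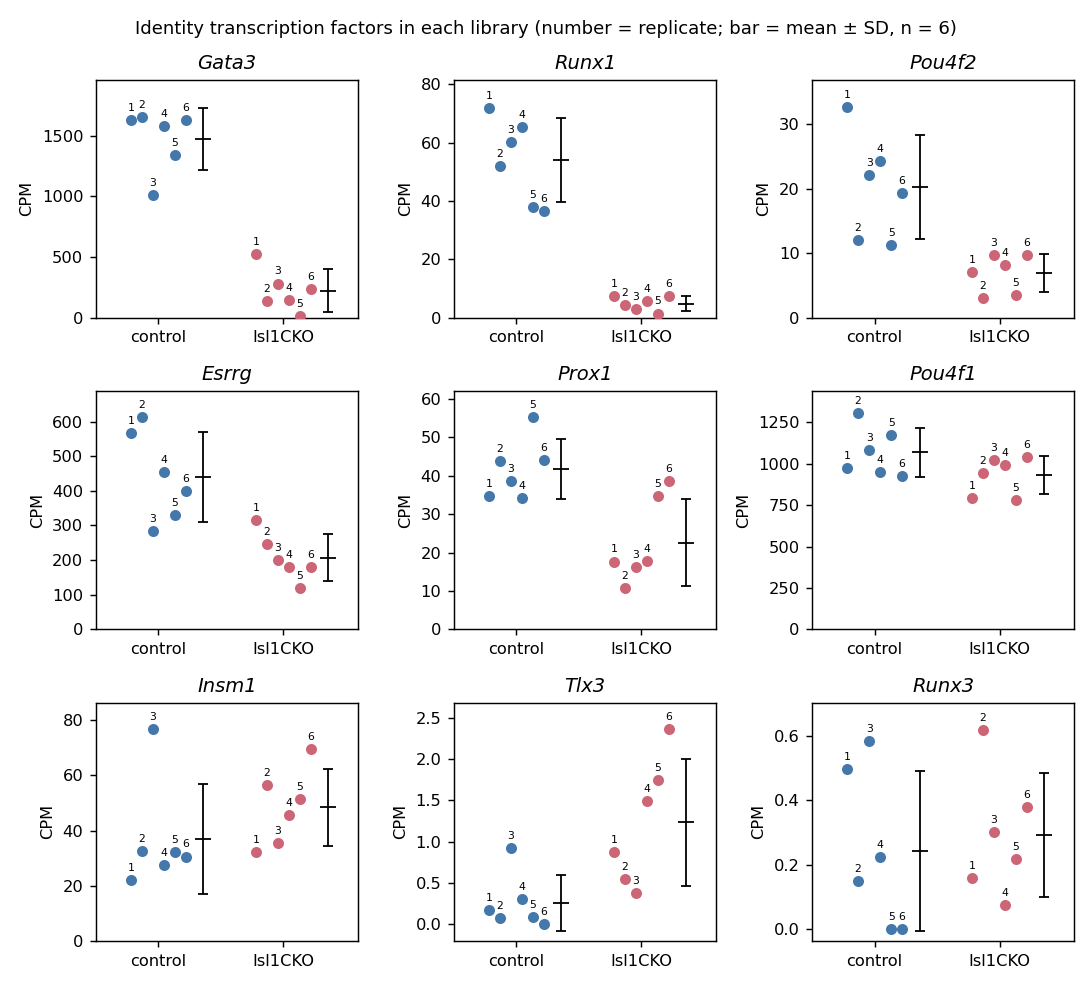
CPM (y axis, linear) of each of the 9 factors in each of the 12 libraries, with controls in blue, Isl1CKO libraries in red, replicate numbers beside the points, and bars for the mean ± SD (n = 6). The groups are apart for Gata3, Runx1 and Pou4f2, and overlap for the others. For Esrrg only Isl1CKO replicate 1 lies above the lowest control.

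Promoter sequences of the 4 factors that fell are shown because these genes moved in 1 direction. Each is the 250 bases before a RefSeq transcript start on GRCm38.p6, 5′ to 3′ on the strand of the gene, from a window that holds no GENCODE exon of that gene. Gata3 is from chr2:9878601-9878850 on the minus strand, Runx1 (the nearer of its 2 promoters to the 3′ end) from chr16:92697330-92697579 on the minus strand, Pou4f2 from chr8:78436648-78436897 on the minus strand, and Esrrg (1 of 4 windows) from chr1:187997577-187997826 on the plus strand. Where a gene had several windows without its own exons, the one with the most motif matches was taken. Capitals mark a match to a searched motif.
Gata3: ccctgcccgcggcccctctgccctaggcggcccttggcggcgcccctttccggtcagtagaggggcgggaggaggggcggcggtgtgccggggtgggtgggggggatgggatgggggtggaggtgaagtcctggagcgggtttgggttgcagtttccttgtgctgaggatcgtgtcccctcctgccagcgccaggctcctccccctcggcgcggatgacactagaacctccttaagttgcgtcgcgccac
Runx1: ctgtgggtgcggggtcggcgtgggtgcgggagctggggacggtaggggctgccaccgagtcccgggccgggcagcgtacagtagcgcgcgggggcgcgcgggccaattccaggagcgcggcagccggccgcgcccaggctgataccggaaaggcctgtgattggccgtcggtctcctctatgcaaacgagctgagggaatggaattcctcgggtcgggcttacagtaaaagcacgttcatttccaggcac
Pou4f2: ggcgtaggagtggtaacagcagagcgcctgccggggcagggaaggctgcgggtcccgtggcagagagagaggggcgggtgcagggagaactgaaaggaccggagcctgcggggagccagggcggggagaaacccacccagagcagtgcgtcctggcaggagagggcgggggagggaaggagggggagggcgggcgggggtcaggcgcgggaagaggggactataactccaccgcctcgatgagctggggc
Esrrg: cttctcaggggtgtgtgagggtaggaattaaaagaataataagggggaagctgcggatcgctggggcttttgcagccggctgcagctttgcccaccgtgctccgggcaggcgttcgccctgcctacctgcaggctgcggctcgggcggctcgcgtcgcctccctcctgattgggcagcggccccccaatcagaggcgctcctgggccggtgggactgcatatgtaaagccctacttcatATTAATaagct
The motifs searched, on both strands, were short cores bound by homeodomain, RUNX and GATA proteins. The homeodomain core TAATTA occurred in 4.84% of the 32851 RefSeq windows of this length. The related core ATTAAT, which can overlap the former and like it reads the same on both strands, occurred in 4.39%. A further homeodomain core, CTAATG, occurred in 6.36%. The RUNX core TGTGGT was found in 14% and the GATA motif AGATAA in 9.99%. The 8 members with a window had 14 windows in all, of which 1 held the second of these motifs and 1 held the RUNX core, and the other three had no match in these letters. The ATTAAT lies 11 to 6 bases before an Esrrg start. The TGTGGT window belongs to Runx3 and has 2 matches on the opposite strand, 134 to 129 and 126 to 121 bases before a start. The G and C content of the shown windows was 70% for Gata3, 67.6% for Runx1, 70.8% for Pou4f2 and 61.2% for Esrrg, where the median of all windows was 52.4%. The 3 Esrrg windows not shown had 50.8%, 41.6% and 63.6%, and the Runx1 window not shown had 45.6%. A match is a description of the letters and marks no binding.

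Gata3 was the most abundant of the 9 factors in control neurons and lost most of its transcripts in the Isl1CKO libraries. The gene (ENSMUSG00000015619) lies on chromosome 2 from 9857078 to 9890034 on the minus strand, with its neighbours Gm13256 and 9230102O04Rik sharing 155 and 77 exonic bases. These neighbours had 112 and 33 counts over all libraries, against 132046 for Gata3. In controls Gata3 ran from 1008 through a median of 1604 to 1657 CPM, and in Isl1CKO libraries from 18.2 through 190.5 to 528 CPM. All 6 Isl1CKO libraries lay below all 6 controls, which held for 6.78% of tested genes in either direction and for 3.65% with the Isl1CKO libraries below. Group means stood at 1474 ± 257 and 225 ± 174 CPM (SD, n = 6), with a fitted log2 difference of -2.71 ± 0.57 (SE; adjusted p = 0.00961 in edgeR). Without the 3 libraries with Xist and Y-linked transcripts it was -2.29 (adjusted p = 0.00340 in edgeR).

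The loss of Gata3 transcripts was uneven among the Isl1CKO libraries. The highest of them was 29.0 times the lowest, compared with 1.65 times in the controls. Replicate 5 was lowest at 18.2 CPM, from 250 counts, and replicate 1 highest at 528 CPM. The same 2 libraries were at the ends for Esrrg and Runx1, replicate 5 being the lowest and replicate 1 the highest of the group for each. For Runx1, replicate 6 at 7.32 CPM was close to replicate 1 at 7.44 CPM. These ends were shared by Nefl, Nefm and Ntrk3 of the 12 neuronal markers and not by the others. Replicate 5 is among the libraries with Xist and Y-linked transcripts. With replicate 5 left out, the log2 fold change of Gata3 was -2.47, and without replicate 1 it was -3.17.

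Gata3 and Prox1 are also used in the epithelium of the developing cochlea, so its markers are given here. Of 10 such markers 3 were tested and Sox9 fell, from 53.2 ± 13.5 to 12.7 ± 9.55 CPM (SD, n = 6; edgeR log2 fold change -2.07, adjusted p = 0.00228) and, with Jag1, it made up most of the summed level. The epithelial cell adhesion gene Epcam was at most 2.66 CPM in any library, and the otic epithelial genes Otog and Oc90 were below 1 CPM in all 12. The part of Sox9-expressing cells in the Gata3 result was not tested.

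The GATA family members Gata2 and Gata6 were at 4.40 and 2.21 CPM in controls and 6.90 and 2.12 CPM in the other group (adjusted p of 0.778 and 0.948 in edgeR), and Gata4 did not exceed 3 counts in any library. Of the GATA cofactors, Zfpm2 was at 80.7 and 96.9 CPM and did not pass (adjusted p = 0.397 in edgeR). Zfpm1 was scarce, at 2.67 and 0.699 CPM with groups that did not overlap (adjusted p = 0.0587 in edgeR).

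Runx1, a DNA-binding factor of the Runt family, had the largest fall of the set. The gene (ENSMUSG00000022952) lies on chromosome 16 from 92601466 to 92826149 on the minus strand, and shares 106 exonic bases with the antisense gene Gm26626. Controls ran from 36.7 through 56.1 to 72.0 CPM and Isl1CKO libraries from 1.46 through 5.05 to 7.44 CPM. The lowest control was thus well above the highest Isl1CKO library. The means of 54.1 ± 14.52 and 4.89 ± 2.41 CPM (SD, n = 6) gave a log2 fold change of -3.47 ± 0.34 (SE), or 11.1-fold lower (adjusted p = 9.65e-06 in edgeR). It ranked at place 74 of 14813 genes by p-value. Without the 3 libraries with Xist and Y-linked transcripts the log2 fold change was -2.98 (adjusted p = 1.12e-04 in edgeR).

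The obligate partner of RUNX proteins fell as well. Cbfb encodes the subunit CBFB, which binds no DNA itself and strengthens DNA binding by the RUNX subunit. It ran from 193 to 349 CPM in controls and from 64.0 to 146 CPM in the Isl1CKO group, with no overlap. Its means were 242 ± 61.2 and 92.9 ± 32.4 CPM (SD, n = 6), with a fitted log2 difference of -1.38 ± 0.21 (SE; adjusted p = 5.53e-04 in edgeR). Without the 3 libraries named above it was -1.28 (adjusted p = 0.0157 in edgeR). Replicate 5 was again the lowest and replicate 1 the highest of the Isl1CKO libraries.

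The paralog Runx3 (ENSMUSG00000070691, chromosome 4, 135120652 to 135177990, plus strand) was close to absent. It had 0 to 7 counts in controls and 1 to 8 in Isl1CKO libraries, and exceeded 3 counts in 2 control and 3 Isl1CKO libraries. A difference in Runx3 was not detectable at this depth, and the log2 ratio of group means was 0.27 with all libraries and -0.24 without Isl1CKO replicates 2, 3 and 5. Runx2 had at most 30 counts in any library. The Runx1:Runx3 ratio of counts is not read further because 2 control libraries had no Runx3 counts.

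Macrophages also use Runx1, and macrophage RNA varied widely between these libraries. Of 11 macrophage markers, 0 passed between the groups in edgeR, where 10.2% of all tested genes did. There were 0 at an unadjusted p under 0.05 and 0 by DESeq2 or limma-voom. Their log2 fold changes were all positive, from 0.39 ± 1.68 (SE, Csf1r) to 2.21 ± 1.53 (SE, Aif1). The median was 1.57, against 0.0045 for all tested genes. With errors of this size the tests cannot show that macrophage RNA was equal in the groups. Control replicates 2 and 5, the lowest of their group in these markers with summed levels of 1.92 and 2.22 CPM, had 52.1 and 38.1 CPM of Runx1. Isl1CKO replicates 2 and 5, the lowest of theirs at 1.32 and 1.39 CPM, had 4.27 and 1.46 CPM of Runx1. With covariates for the levels of Schwann cell and macrophage markers, a choice made once values had been seen, Runx1 had a log2 difference of -3.77 (adjusted p = 4.29e-05 in edgeR). Beyond that fit, the part of macrophage RNA in the Runx1 result was not tested. The megakaryocyte markers Itga2b and Pf4 reached at most 3.25 and 19.3 CPM.

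**Figure D2:**
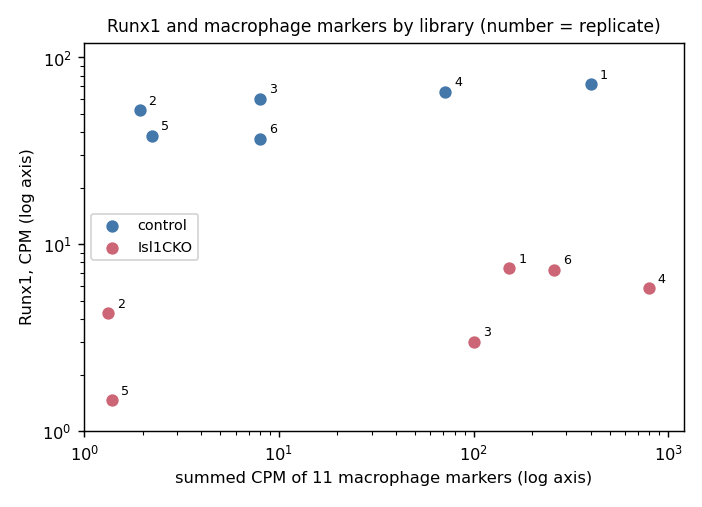
Runx1 in CPM (y axis, log) against the summed CPM of 11 macrophage markers (x axis, log) in each library, controls in blue and Isl1CKO libraries in red, with replicate numbers. Control libraries lie at 36.7 CPM of Runx1 or above and Isl1CKO libraries at 7.44 CPM or below across the range of macrophage markers.

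Some corepressor genes whose proteins bind RUNX factors rose. The corepressor gene Runx1t1 rose from 368 ± 49.8 to 532 ± 70.6 CPM (SD, n = 6; edgeR log2 fold change 0.53, adjusted p = 0.00379). Its relative Cbfa2t3 rose from 11.2 ± 4.36 to 32.1 ± 15.2 CPM (SD, n = 6; log2 fold change 1.51, adjusted p = 0.0145 in edgeR). The Groucho corepressor gene Tle2 rose by 0.82 on the log2 scale (adjusted p = 0.0109 in edgeR), whereas Tle1, Tle3 and Tle4 had log2 fold changes of 0.040, -0.28 and -0.0072 and did not pass (adjusted p of 0.924, 0.551 and 0.989 in edgeR). The call of Cbfa2t3 was lost with the marker covariates (adjusted p = 0.107 in edgeR), as was that of Tle2 (adjusted p = 0.153 in edgeR).

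Esrrg, an orphan nuclear receptor of the oestrogen-related family, fell in the Isl1CKO libraries with groups that overlapped. The gene (ENSMUSG00000026610, chromosome 1, 187608791 to 188214885, plus strand) is overlapped by 4 genes that share none of its annotated exonic bases. Controls ran from 283 through 427 to 612 CPM and Isl1CKO libraries from 120 through 190 to 316 CPM. Of the 6 Isl1CKO libraries 5 lay below the lowest control, which was control 3, and replicate 1 lay above it. Group means stood at 441 ± 130 and 207 ± 67.5 CPM (SD, n = 6), with a fitted log2 difference of -1.09 ± 0.22 (SE; adjusted p = 0.00486 in edgeR). The call was lost without Isl1CKO replicates 2, 3 and 5, when the log2 fold change was -0.98 (adjusted p = 0.0673 in edgeR). Its relative Esrra stayed low, at 3.18 and 3.24 CPM (adjusted p = 0.982 in edgeR), and Esrrb had at most 22 counts in a library. The coactivator gene Ppargc1a was at 1.76 and 1.45 CPM (adjusted p = 0.850 in edgeR), so these partners were scarce in both groups.

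Of the 2 POU factors 1 passed the test. Pou4f1 (ENSMUSG00000048349, chromosome 14, 104461676 to 104467999, minus strand), the POU homeodomain factor of sensory neurons also named BRN3A, ran from 926 through 1027 to 1305 CPM in controls and from 783 through 971 to 1039 CPM in Isl1CKO libraries. Of the 6 Isl1CKO libraries 4 lay within the control range and 2 below it. Its log2 fold change was -0.20 ± 0.10 (SE) and did not pass (adjusted p = 0.249 in edgeR). Without Isl1CKO replicates 2, 3 and 5 it was -0.19 (adjusted p = 0.517 in edgeR). Depth was not limiting here, since the lowest library had 9983 counts.

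Pou4f2 (ENSMUSG00000031688, chromosome 8, 78433010 to 78436645, minus strand), best known from retinal ganglion cells, was far scarcer and fell. It ran from 11.3 through 20.7 to 32.7 CPM in controls and from 3.03 through 7.63 to 9.76 CPM in the other group. The groups did not overlap, although control replicates 2 and 5 at 12.0 and 11.3 CPM lay close to Isl1CKO replicates 3 and 6 at 9.71 and 9.76 CPM. Group means stood at 20.3 ± 8.02 and 6.89 ± 2.96 CPM (SD, n = 6), with a fitted log2 difference of -1.56 ± 0.35 (SE; adjusted p = 0.00903 in edgeR). The call was lost without Isl1CKO replicates 2, 3 and 5 (log2 fold change -1.29, adjusted p = 0.0693 in edgeR). Pou4f1 and Pou4f2 have similar coding sequence, and how reads that fit both were counted is not stated in the sources used here.

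Within a library there were 29.8 to 109 Pou4f1 counts per Pou4f2 count in controls, with a median of 48.4. The Isl1CKO libraries had 105 to 313, with a median of 117. These ratios do not depend on scaling, and the groups met only at control replicate 2, whose ratio of 108.9 lay above 2 of the Isl1CKO libraries. The third member of the family, Pou4f3, a hair cell factor, had at most 32 counts in a library.

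Prox1, a homeobox factor, split the Isl1CKO libraries. The gene (ENSMUSG00000010175) lies on chromosome 1 from 190118035 to 190170714 on the minus strand and shares 133 exonic bases with Prox1os, which had 115 counts in all against 5026. Controls ran from 34.1 through 41.1 to 55.2 CPM. Isl1CKO replicates 1 to 4 lay between 10.8 and 17.7 CPM, and replicates 5 and 6 lay within the control range at 34.7 and 38.6 CPM. The log2 fold change was -0.88 ± 0.27 (SE), which narrowly missed the threshold (adjusted p = 0.0543 in edgeR). It passed without replicate 5 (log2 fold change -1.05, adjusted p = 0.0323 in edgeR) and without replicate 6 (-1.10, adjusted p = 0.0154 in edgeR). Whether it passed thus depended in part on those 2 libraries, and also on the tool, filter and scaling. Without Isl1CKO replicates 2, 3 and 5 it was -0.76 (adjusted p = 0.170 in edgeR). With DESeq2 in place of edgeR it passed (DESeq2 adjusted p = 0.0121). Replicate 5 was thus the lowest of its group for Gata3 and among the highest for Prox1. The lymphatic markers Flt4 and Lyve1, which accompany Prox1 in lymphatic vessels, reached at most 1.25 and 4.07 CPM.

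The paralog Prox2 was scarce. It went from 3.22 ± 1.51 to 0.740 ± 0.577 CPM without overlap (SD, n = 6; log2 fold change -2.10, adjusted p = 0.0321 in edgeR). That call was lost when any 1 of 6 libraries was left out, namely control replicates 2 and 6 and Isl1CKO replicates 1, 2, 4 and 5, with an edgeR adjusted p of up to 0.0841. It was also lost without Isl1CKO replicates 2, 3 and 5 (adjusted p = 0.0656 in edgeR).

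Insm1, a zinc finger factor of newly formed neurons, was the 1 tested member with a positive log2 fold change. The gene (ENSMUSG00000068154) lies on chromosome 2 from 146221921 to 146225020 on the plus strand. Controls ran from 22.1 through 31.4 to 76.9 CPM and Isl1CKO libraries from 32.2 through 48.5 to 69.7 CPM. The highest value of all came from control replicate 3, and the other 5 controls were at 32.6 CPM or below. The log2 fold change was 0.39 ± 0.28 (SE; adjusted p = 0.444 in edgeR). It was 0.73 and passed when control 3 was left out (adjusted p = 0.0317 in edgeR). Without Isl1CKO replicates 2, 3 and 5 it was 0.41 (adjusted p = 0.658 in edgeR). Insm1 can be high in cells that are leaving division, so the dividing cell markers are given: control replicate 3 had the lowest sum of any library, 94.9 CPM. Of these 8 markers 0 passed between the groups in edgeR, with 1 at an unadjusted p under 0.05 and 0 by DESeq2 or limma-voom, and their part in the Insm1 values was not tested. The relative Insm2 was at 0.498 to 6.09 CPM in controls and at 0.0753 to 0.224 CPM in Isl1CKO libraries, too low to be tested.

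Tlx3, a homeobox factor that favours glutamatergic over GABAergic fate in spinal and sensory neurons, was close to the detection limit. The gene (ENSMUSG00000040610) lies on chromosome 11 from 33200752 to 33203589 on the minus strand. Controls had 0 to 11 counts, and 5 of 6 had 4 or fewer, the exception being control 3. Isl1CKO libraries had 5 to 31 counts, and all 6 exceeded 3. Replicates 4, 5 and 6 were above every control, at 1.49, 1.75 and 2.36 CPM. The ratio of group means, 1.23 to 0.256 CPM, was 2.27 on the log2 scale. With no filter on low counts the edgeR value was 2.25 and did not pass (adjusted p = 0.162). The ratio was 3.32 on the log2 scale without control 3 and 2.59 without Isl1CKO replicates 2, 3 and 5. The relatives Tlx1 and Tlx2 had at most 15 and 62 counts in a library.

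**Figure D3:**
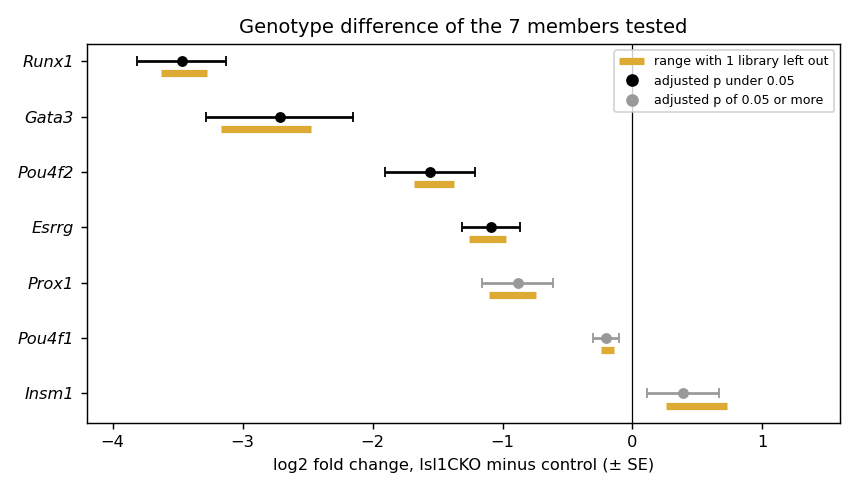
Log2 fold change (x axis, Isl1CKO minus control) of the 7 factors tested, with bars for ± SE, black for an adjusted p under 0.05 and grey otherwise, and yellow bands for the range when each library was left out in turn. The bands of Runx1, Gata3, Pou4f2 and Esrrg stay below -0.97, and Insm1 alone lies above 0.

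Levels of different genes were compared per length, as CPM divided by the length of annotated exon in kilobases. In controls Gata3 led with 370.4 ± 64.5 and Pou4f1 followed with 229 ± 31.9, then Esrrg with 71.0 ± 20.9 (SD, n = 6). Gata3 was above Pou4f1 in all 6 control libraries, although their ranges overlapped. Insm1 at 11.9, Pou4f2 at 6.33, Prox1 at 4.97 and Runx1 at 4.50 formed a group whose neighbours overlapped in range, and Prox1 exceeded Runx1 in 3 of 6 libraries. Tlx3 and Runx3 were lowest, at 0.167 and 0.0484.

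The order was different in the Isl1CKO libraries. Pou4f1 led at 199 ± 24.6 and was above Gata3 in all 6 libraries with no overlap of ranges (SD, n = 6). Gata3, at 56.5 ± 43.9, exceeded Esrrg, at 33.3 ± 10.9, in 4 of 6 libraries (SD, n = 6). Runx1 fell to 0.406, a level whose range overlapped those of Tlx3 at 0.804 and Runx3 at 0.0585. Within libraries Tlx3 exceeded Runx1 in 3 of 6, and Runx1 exceeded Runx3 in all 6. In total the 9 factors summed to 2571 to 3715 CPM in controls and 1014 to 1700 CPM in the other group.

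**Figure D4:**
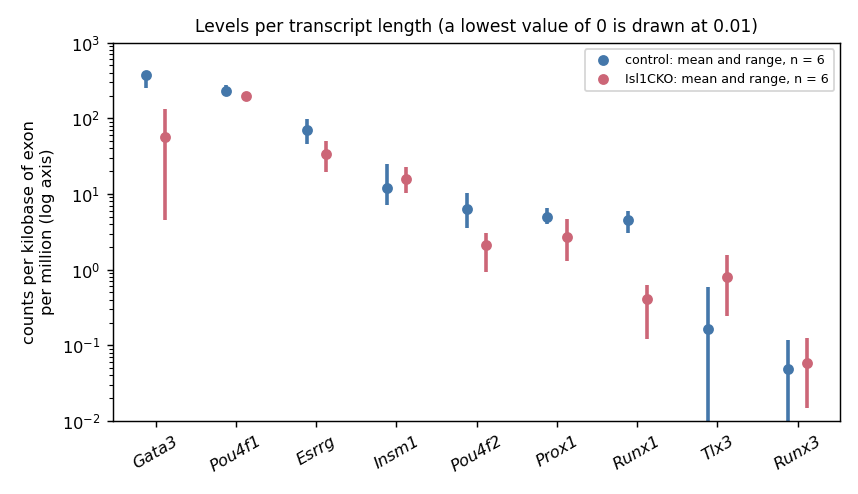
CPM per kilobase of exon (y axis, log) of the 9 factors, ordered by control mean, with points for group means and lines for the range over 6 libraries, a lowest value of 0 being drawn at 0.01. Gata3 is above Pou4f1 in controls and below it in Isl1CKO libraries, and Runx1 moves from 4.50 to 0.406.

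For each tested factor the 2 genes with the most similar deviations from the group means over the 12 libraries were sought among 9595 genes whose log2 CPM averaged 3 or more. Being the highest of so many, these values of Pearson's r are descriptions. Gata3 was closest to Ppp1r1c (r = 0.966) and Kctd16 (r = 0.964), which themselves fell, with log2 values of -2.28 and -2.90 (adjusted p of 0.0163 and 0.00387 in edgeR). Insm1 was closest to the zinc finger gene Zbtb18 (r = 0.946), which rose by 0.95 (adjusted p = 0.00526 in edgeR), and to ENSMUSG00000118642 (r = 0.932). Runx1 was closest to Amer1 and Ccdc85a (r of 0.918 and 0.881), Esrrg to Utp4 and Edil3 (0.909 and 0.898), and Pou4f2 to Ddost and Ddhd1 (0.960 and 0.935). Prox1 was closest to Fbxo28 and Snx29 (0.907 and 0.866) and Pou4f1 to Pcmtd2 and Sptlc2 (0.853 and 0.851). Of these 10 genes Pcmtd2 passed the test between the groups, with a log2 fold change of 0.52 (adjusted p = 0.0272 in edgeR).

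Markers of the auditory neuron subtypes that these factors help to define were mostly lower. Of 18 listed genes 14 were tested and 9 passed (64.3%, against 10.2% of all tested genes), 7 lower and 2 higher. The list's median log2 fold change was -1.23, where that of all tested genes was 0.0045. Of the 12 neuronal markers, 7 passed (58.3%), 4 lower and 3 higher. Netrin G1 (Ntng1), an axonal adhesion molecule, fell from 194 ± 37.5 to 27.1 ± 9.27 CPM (SD, n = 6; log2 fold change -2.84, adjusted p = 5.01e-07 in edgeR). Lypd1, which marks the type I subset that also uses Runx1 and Pou4f1, fell from 43.5 ± 17.6 to 3.36 ± 2.30 CPM (SD, n = 6; log2 fold change -3.69, adjusted p = 4.43e-05 in edgeR). Calb1, the calcium buffer calbindin used by another type I subset, fell from 489.9 ± 134 to 97.0 ± 85.9 CPM (SD, n = 6; log2 fold change -2.34, adjusted p = 0.0228 in edgeR), a call lost with the marker covariates (adjusted p = 0.0551 in edgeR).

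Pvalb, encoding parvalbumin, fell by 2.34 on the log2 scale (adjusted p = 0.00654 in edgeR), and the guidance receptor gene Epha4 fell by 1.39 (adjusted p = 1.19e-04 in edgeR). Of genes known from type II neurons, the neurotrophin receptor gene Ngfr fell by 1.07 (adjusted p = 0.00177 in edgeR) and the ETS factor gene Etv4 fell by 2.27 (adjusted p = 0.0131 in edgeR). Th and Smad3 of the same list had log2 fold changes of -0.36 and -1.33 and did not pass (adjusted p of 0.895 and 0.444 in edgeR). The intermediate filament gene Prph was variable, at 10.5 to 224 CPM in controls and 0.381 to 165 CPM in Isl1CKO libraries, and did not pass (adjusted p = 0.825 in edgeR). The value of Etv4 was -2.97 without Isl1CKO replicate 1. The 2 markers that rose were the protocadherin gene Pcdh20 and Kcnip2, which encodes a potassium channel partner. Pcdh20 was at 0 to 0.439 CPM in 5 controls, at 3.85 CPM in control 4 and at 10.3 to 54.6 CPM in Isl1CKO libraries, so it entered the test through the latter group. Its log2 fold change of 4.91 (adjusted p = 0.00238 in edgeR) depends on control 4, without which it was 7.16, and was 4.48 without Isl1CKO replicate 6. Kcnip2 rose from 5.73 ± 1.68 to 15.1 ± 7.06 CPM (SD, n = 6; log2 fold change 1.40, adjusted p = 0.00905 in edgeR). Without the 3 libraries with Xist and Y-linked transcripts 6 markers passed, where 4.73% of tested genes did. Pvalb, Etv4 and Kcnip2 then did not pass (adjusted p of 0.111, 0.0784 and 0.105 in edgeR).

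A part of the wider sensory neuron programme fell. Of 24 listed 17 were tested and 8 passed, all of them lower. That is 47.1%, against 10.2% of all tested genes and 58.3% of the 12 neuronal markers. The list's median log2 fold change was -1.07. By DESeq2 and by limma-voom 2 others passed as higher. The neurotrophin receptor genes Ntrk2 and Ntrk3 fell, with log2 values of -2.81 and -1.40 (adjusted p of 3.98e-06 and 3.97e-05 in edgeR). Isl2, the paralog of the targeted gene, fell from 285 ± 68.0 to 64.4 ± 16.9 CPM without overlap (SD, n = 6; log2 fold change -2.15, adjusted p = 4.85e-06 in edgeR). The sodium channel gene Scn9a fell from 271 ± 43.3 to 96.6 ± 30.8 CPM (SD, n = 6; log2 fold change -1.49, adjusted p = 9.91e-05 in edgeR). All 8 also passed without the 3 libraries, where 4.73% of tested genes did.

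Other transcription factors of the otic lineage were mostly higher. Of 21 listed 16 were tested and 9 passed, 8 higher and 1 lower. That is 56.2%, against 10.2% of all tested genes and 58.3% of the 12 neuronal markers. The list's median log2 fold change was 0.49. Nfia and Nfib, nuclear factor I genes of late-born neurons and glia, rose from 88.3 ± 19.8 to 353 ± 89.6 CPM and from 46.0 ± 10.8 to 118 ± 36.8 CPM (SD, n = 6). In log2 terms they rose by 2.00 and 1.36 (adjusted p of 2.50e-06 and 5.54e-04 in edgeR). The zinc finger homeobox gene Zfhx4 rose by 0.64 (adjusted p = 4.48e-04 in edgeR), and the 1 factor that fell was Bhlhe22, a basic helix-loop-helix repressor, which fell by 2.36 (adjusted p = 9.15e-04 in edgeR). Neurod1, the neurogenic factor whose sequences drive Cre here, rose from 1471 ± 351 to 2715 ± 621 CPM (SD, n = 6; log2 fold change 0.88, adjusted p = 0.00435 in edgeR). Eya1, which acts early in otic neurogenesis, stood at -0.22 in log2 difference (adjusted p = 0.341 in edgeR). Without the 3 libraries 6 passed, where 4.73% of tested genes did. Because Nfia and Nfib are also used in glia, the Schwann cell markers are given: of 9, 6 were tested and 0 passed in edgeR. There were 0 at an unadjusted p under 0.05 and 0 by DESeq2 or limma-voom. The median log2 fold change of the 6 was 1.05, against 0.0045 for all tested genes. Equal Schwann cell RNA in the groups was thus not shown.

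Cofactors of the 9 factors formed a list of 23 genes. Of 22 tested 6 passed (27.3%, against 10.2% of all tested genes), 1 lower, which was Cbfb, and 5 higher. The list's median log2 fold change was 0.13. Besides Cbfb and the corepressor genes above, the TALE homeobox gene Pbx3, a partner of homeodomain proteins, rose by 0.67 in log2 terms (adjusted p = 0.0145 in edgeR). That call was lost without the 3 libraries (adjusted p = 0.0938 in edgeR). Kdm1a, Rcor1, Rcor2, Hdac1 and Hdac2, whose proteins form the corepressor complex that binds INSM1, had log2 fold changes between -0.38 and 0.16 and did not pass. Of 13 family relatives 4 were tested and Prox2 passed (25%, against 10.2% of all tested genes), with a list median of -0.014. With the marker covariates 3 cofactors passed in place of 6.

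**Figure D5:**
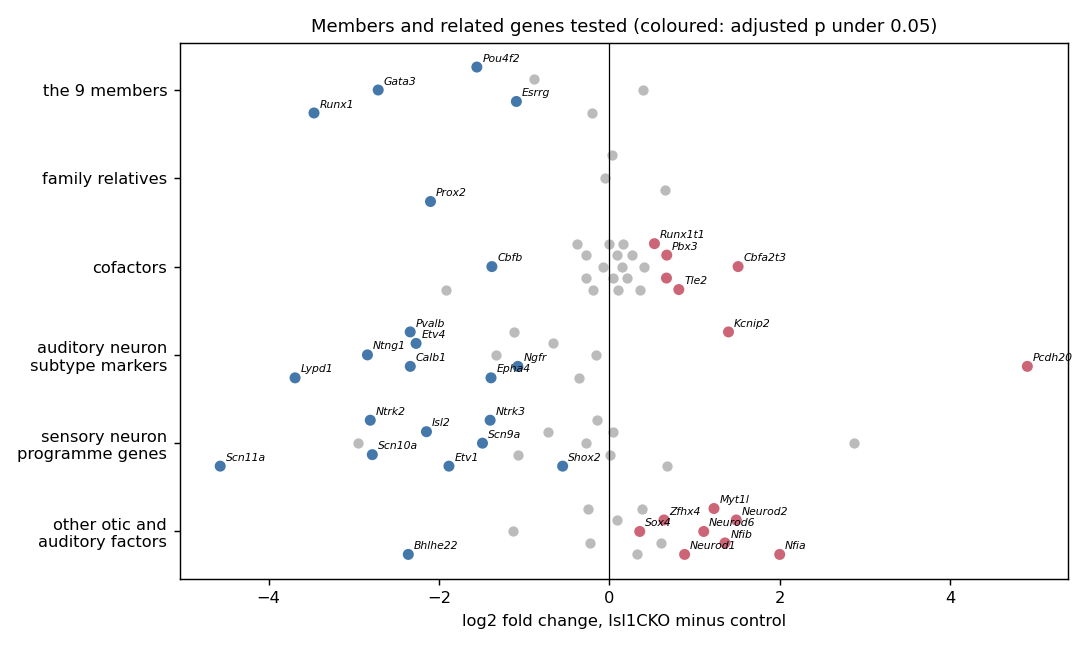
Log2 fold change (x axis, Isl1CKO minus control) of each tested gene in the 9 members and in the 5 lists of related genes (y axis). Genes with an adjusted p under 0.05 are coloured blue where lower and red where higher, with names beside most of them, the others are grey, and the vertical scatter within a row has no meaning. Subtype markers and sensory programme genes lie mostly to the left of 0 and other otic factors mostly to the right.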

How the data were processed

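Counts per gene were deposited by the authors as whole numbers, not normalized, for 12 libraries of sorted neurons. The submitters' processing notes name cutadapt 1.18, Bowtie 1.2.2, STAR 2.7.0c, featureCounts and the build GRCm38.p6, with no role or order. The annotation and the use of strand are not given in the sources used here, so counts of overlapping or antisense genes are uncertain. Each column name gave its group and replicate. Coordinates and exon lengths are from GENCODE M21 on GRCm38, and promoters from RefSeq on GRCm38.p6.

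Genes were tested with edgeR 4.0.16 under R 4.3.3: filterByExpr with a minimum count of 10, TMM scaling, the robust quasi-likelihood F-test with no covariate, and Benjamini-Hochberg adjustment over all 14813 genes tested (threshold 0.05). The standard error is the absolute log2 fold change divided by the square root of F. Alternatives were DESeq2 1.42.0 size factors or Wald test, upper quartile scaling, no filter, a mean of at least 5 CPM, limma-voom 3.58.1, the replicate number as a block, and each library left out. On simulated data with 200 of 14813 genes altered, edgeR recovered 62.6% of them with 3 false calls. No library was a copy of another (chi-square per gene of at least 21.1 for every pair). Named genes are the 9 members, up to 4 per list with the smallest p among those past the threshold, family relatives, Cbfb and the 2 most similar genes per member. Others named for context were chosen after their values were seen, and a few genes of the lists are counted but not reported by name here. The members and lists were chosen with earlier results of these data known.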

Additional observations from a re-analysis of the deposited data

Results flagged for a closer look

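In 18 groups of 6 values, 1 for each factor and genotype, 1 library stood apart from the other 5 under Dixon's test on log values. About 1 in 20 would by chance, and which libraries stand apart depends on that scale. Insm1 was at 76.9 CPM in control 3, with the other controls at 32.6 CPM or below.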

How the results depend on the processing

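Over 21 alternatives, the log2 fold changes of Gata3, Runx1, Pou4f2, Esrrg, Prox1, Pou4f1 and Insm1 kept their direction, and Gata3 and Runx1 passed in every one. Without the 3 libraries with Xist and Y-linked transcripts, a choice made after seeing the data, 767 genes were called in place of 1511, with 2 members and 0 family relatives. Pou4f2 was then at -1.29 and Esrrg at -0.98, neither past the threshold, and the Runx3 ratio reversed to -0.24. The Runx3 ratio, 0.27 on the log2 scale over all libraries, also reversed without Isl1CKO replicate 2, to -0.094, and reached 0.75 without control 3. With the marker covariates 931 genes, 3 cofactors and 0 family relatives were called. Prox1 passed with upper quartile scaling (-0.91), a mean of at least 5 CPM (-0.89), DESeq2 (-0.89) and limma-voom (-1.01). In 14 of 21 alternatives it did not pass, as in the main fit. Among these in edgeR were DESeq2 size factors (adjusted p = 0.0535), no filter (adjusted p = 0.0687) and the marker covariates (-0.67, adjusted p = 0.316). With 1 library left out, Prox1 ran from -1.10 to -0.75, Insm1 from 0.26 to 0.73, Tlx3 from 1.98 to 3.32, family relatives called from 0 to 2 and members called from 4 to 5. Family relatives called were 0 with a mean of at least 5 CPM. The cause of these shifts was not tested.

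The replicate number as a block gave 1450 calls, 0 family relatives, and -1.0 for Prox1, which then passed, and ended the calls of Cbfa2t3 and Pbx3. Whether the numbers pair the libraries was left unsettled by the correlations of their deviations. Same-numbered libraries had correlations of -0.056 to 0.15, and the medians with other numbers were -0.028 to 0.016. Of 6 numbers, 2 were matched best by their own. Tlx3 and Runx3 are limited by depth.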
